A study of Rattus norvegicus with 6 samples.

Results

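Brd7 and the subunits of the SWI/SNF chromatin remodeling complexes were examined in 6 RNA-seq libraries, 3 from cells transfected with a small interfering RNA against NQO1 (siNQO1) and 3 from cells transfected with a nontargeting control (siCtrl). The 10 genes were chosen by name, as the rows of the deposited count and FPKM tables with the symbols Brd7, Brd9, Pbrm1, Arid2, Arid1a, Arid1b, Smarca2, Smarca4, Smarcb1 and Smarcc1. All 10 were found among 18746 genes, each in a single row, and 9 of them were among the 12420 genes with enough reads to be tested. The cells are labelled PC12, a line from a rat adrenal pheochromocytoma, and all 6 samples carry that label. The methods of the study name siRNAs, while the labels speak of a control plasmid and of shRNA directed at NQO1. The grouping is the same in both. Transfected cells were harvested at 48 h for RT-qPCR, and the sources used here do not name the time for the sequenced cells. The study calls its samples biological replicates without saying whether each came from a culture of its own. The p-values thus rest on the spread among these samples, which may be technical.

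SWI/SNF complexes use ATP to slide or evict nucleosomes and so open or close regulatory DNA. Mammalian cells build 3 forms around a shared ATPase, Smarca4 (BRG1) or Smarca2 (BRM). Canonical BAF carries Arid1a or Arid1b, PBAF carries Brd7, Pbrm1, Arid2 and Phf10, and noncanonical BAF carries Brd9 with Bicra or Bicral. Smarcc1 is a scaffold of every form, and Smarcb1 is a core subunit of canonical BAF and PBAF that noncanonical BAF lacks. Brd7, a bromodomain protein that binds acetylated histones, is also known as a partner of p53.

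The libraries held 28873824 to 39467230 reads assigned to genes. Values of single libraries are given throughout in the order of replicates 1, 2 and 3. Log2 fold changes are siNQO1 over siCtrl from the quasi-likelihood test of edgeR, with their standard error (SE) and a p adjusted over all genes tested, called at 0.05. The library of siCtrl replicate 2 was less like siCtrl replicate 1 than siCtrl replicate 3 was. The Pearson correlation of log2 CPM was 0.986 between siCtrl replicates 1 and 2, against 0.993 between siCtrl replicates 1 and 3. The correlation between siCtrl replicates 2 and 3 is not given, so these values do not show which siCtrl library stood apart. The siNQO1 libraries had 0.985, 0.984 and 0.987 with siCtrl replicate 1, so siCtrl replicate 2 differed from siCtrl replicate 1 about as much as they did. Results that rest on siCtrl replicate 2 are also given without it. Nqo1 fell to 22.6% of its control FPKM (log2 fold change -2.13, SE 0.066, edgeR adjusted p = 1.54e-06). Markers of the labelled cell type were nearly absent. Of 11 chromaffin markers 9 had a row, and the highest, Gata3, reached 0.43 FPKM. Their summed FPKM was 0.65 to 0.67 in siCtrl and 0.49 to 0.54 in siNQO1. Tyrosine hydroxylase, Th, lay between 0.04 and 0.09 FPKM. Of the Schwann cell markers, Sox10 lay between 192.5 and 232.8 FPKM over all libraries. S100b was at 236.4, 221.1 and 250.4 FPKM in siCtrl and lower in siNQO1, at 175.1, 170.3 and 169.0 (log2 fold change -0.45, SE 0.061, edgeR adjusted p = 0.00329). The part of these marker differences in the results that follow was not tested. Macrophage, endothelial and adrenal cortex markers reached at most 1.45 FPKM, and of the fibroblast markers Pdgfra was the 1 over 1 FPKM in every library, at 45.4 to 51.2.

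The Brd7 sequences are shown because Brd7 was the member that passed under every alternative without a fold threshold. The study also measured it by RT-qPCR, which was not analysed here, with these primers, given 5′ to 3′.
Brd7 forward: tgaacaagtgaccaataacc
Brd7 reverse: aatctacgaggctgtgtc
The 184 bases that precede the first annotated base of Brd7 in RefSeq (build GRCr8, chr19:34882054-34882237, plus strand) hold 57.6% G and C, with an A-rich first part and a GC-rich part next to the gene.
Brd7 promoter: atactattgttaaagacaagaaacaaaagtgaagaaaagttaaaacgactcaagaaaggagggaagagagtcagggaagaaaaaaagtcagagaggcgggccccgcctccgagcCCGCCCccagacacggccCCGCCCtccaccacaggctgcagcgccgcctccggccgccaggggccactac
Capitals mark 2 matches to the GC box GGGCGG, read on both strands. The first 184 bases of 21.6% of the 33469 promoter windows in the same reference hold a match, and so do those of 8 of the 10 members (all but Pbrm1 and Smarcc1). The windows were not limited to expressed or protein-coding genes, so these shares come from unlike sets. The antioxidant element bound by NRF2, TGACNNNGC, was in 6.90% of these windows and in no member. The ETS motif CCGGAAG (3.87% of windows) was in no member, CCAAT (26.6%) was in Smarca4, and the NRF1 motif GCGCATGCG (0.681%) was in Smarcc1.

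Brd7 was lower in every siNQO1 library. The siCtrl libraries had 44.0, 43.1 and 42.4 FPKM and the siNQO1 libraries 25.4, 25.9 and 25.7. The spread within either group was small beside the gap between them. The means were 43.2 ± 0.806 (SD, n = 3) and 25.6 ± 0.249 (SD, n = 3), so 59.4% of the control level remained. These values rest on 3307, 3969 and 3902 reads per siCtrl library and on 2217, 2228 and 2653 per siNQO1 library. The log2 fold change was -0.74 (SE 0.045, 95% interval -0.84 to -0.64, edgeR adjusted p = 0.00015), which did not reach the 2-fold threshold of the study. The study itself counts Brd7 among its differentially expressed genes. Its text gives no fold for Brd7, and the source of this difference was not tested. The study also reports Brd7 lower by RT-qPCR. Per its methods that RT-qPCR used RNA left over from making the sequencing libraries, so it is not a measurement of separate samples. By its p-value Brd7 ranked 7 among the 12420 genes tested. An exact permutation test gave a two-sided p of 0.10, and no smaller value is possible with 3 libraries on each side. Leaving out any 1 library kept the call, with adjusted p up to 0.00434.

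Brd7 was the most abundant member per length in siCtrl, above Smarca4, and stood below Smarca4 in siNQO1. In siCtrl, Smarca4 followed at 32.2 ± 2.51 FPKM (SD, n = 3), then Smarcc1 at 18.5 ± 1.26, Brd9 at 15.1 ± 0.541, Arid1a at 8.92 ± 0.542 and Arid1b at 8.84 ± 0.817. Smarca2, Pbrm1 and Arid2 were an order lower, at 1.36 ± 0.275, 1.27 ± 0.440 and 1.26 ± 0.172 FPKM. The libraries of Arid1a and Arid1b overlapped, as did those of Smarca2, Pbrm1 and Arid2, so no order can be read within these groups. The ranges of all other neighbors in the order were separate. In siNQO1 the libraries of Smarca4 (27.8 to 28.8 FPKM) lay above those of Brd7 (25.4 to 25.9), those of Arid1b (7.73 to 8.48) lay above those of Arid1a (7.33 to 7.44), and Pbrm1 (1.63 to 1.92) lay above Smarca2 (1.11 to 1.28). In bulk RNA, less RNA per cell and fewer cells of a kind cannot be told apart.

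**Figure D1:**
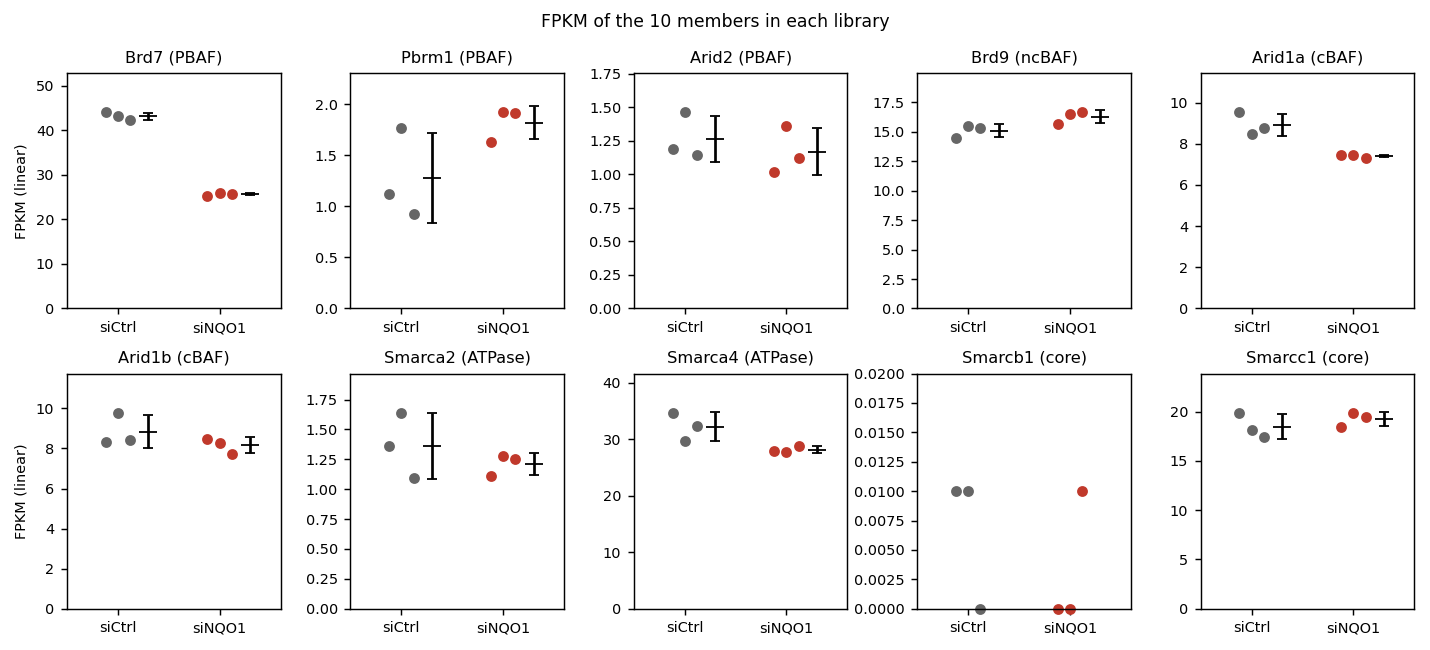
FPKM of the 10 members in each library, on linear axes that start at 0, with siCtrl in gray, siNQO1 in red, and black bars for the mean and SD of 3 libraries (not drawn for Smarcb1). Brd7 lies between 42.4 and 44.0 in siCtrl and between 25.4 and 25.9 in siNQO1, and Smarcb1 does not exceed 0.01 in any library.

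Neither of the other PBAF members was called lower. Pbrm1, which reads acetylated histones through a row of bromodomains, was at 1.12, 1.77 and 0.93 FPKM in siCtrl and at 1.63, 1.92 and 1.91 in siNQO1. The value of siCtrl replicate 2 lay within the siNQO1 range and the other siCtrl values lay below it. The log2 fold change was 0.53 (SE 0.21, edgeR adjusted p = 0.139). Without siCtrl replicate 2 it was 0.84 (SE 0.12, edgeR adjusted p = 0.000233), and DESeq2 on all libraries gave an adjusted p of 0.0466, so whether Pbrm1 passed rested on that library and on the tool. Arid2, the ARID subunit of PBAF, was at 1.19, 1.46 and 1.14 FPKM in siCtrl and 1.02, 1.36 and 1.12 in siNQO1. Its groups overlapped, and its log2 fold change of -0.10 (95% interval -0.43 to 0.23) did not pass.

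Phf10, the PHD finger subunit of PBAF and not among the 10, moved the opposite way to Brd7. It was at 37.7, 36.8 and 34.3 FPKM in siCtrl and at 42.7, 44.1 and 40.7 in siNQO1, with no overlap (log2 fold change 0.24, SE 0.058, edgeR adjusted p = 0.0296). Phf10 lost its call without siCtrl replicate 1 or 3 or without any 1 siNQO1 library, with adjusted p up to 0.151. The ratio of Brd7 to Phf10, a pair looked at after the values were seen, was 1.17, 1.17 and 1.24 in siCtrl and 0.594, 0.586 and 0.632 in siNQO1, so Brd7 was the more abundant per length in siCtrl and Phf10 in siNQO1.

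In canonical BAF, Arid1a was lower. Arid1a, a DNA-binding ARID subunit, was at 9.52, 8.47 and 8.76 FPKM in siCtrl and at 7.44, 7.44 and 7.33 in siNQO1. Every siNQO1 library lay below every siCtrl library, at 83.0% of the control mean (log2 fold change -0.25, SE 0.058, edgeR adjusted p = 0.0258). The call was lost without siCtrl replicate 3 or without any 1 siNQO1 library, with adjusted p from 0.0587 to 0.0791. Arid1b, its paralog, was at 8.30, 9.78 and 8.44 FPKM in siCtrl and 8.48, 8.28 and 7.73 in siNQO1. The groups overlapped (log2 fold change -0.10, 95% interval -0.27 to 0.07, edgeR adjusted p = 0.419). In noncanonical BAF, Brd9, the paralog of Brd7 that defines this form, was at 14.5, 15.5 and 15.3 FPKM in siCtrl and at 15.6, 16.5 and 16.6 in siNQO1. Its siNQO1 libraries were all the higher ones, by a log2 fold change of 0.12 (95% interval -0.01 to 0.26) that did not pass (edgeR adjusted p = 0.218).

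Of the ATPases, Smarca4 was at 34.7, 29.7 and 32.3 FPKM in siCtrl and at 27.9, 27.8 and 28.8 in siNQO1. The groups did not overlap, but siCtrl replicate 2 was close to the siNQO1 libraries, and the log2 fold change of -0.18 (SE 0.062) did not pass (edgeR adjusted p = 0.0925). Without siCtrl replicate 2 it was -0.24 (SE 0.042, edgeR adjusted p = 0.000791). Smarca2 was at 1.36, 1.64 and 1.09 FPKM in siCtrl and 1.11, 1.28 and 1.25 in siNQO1, with overlapping groups and a log2 fold change of -0.15 (95% interval -0.50 to 0.20). Smarca4 was the main ATPase transcript in every library, since the Smarca2 to Smarca4 ratio of FPKM ran from 0.0337 to 0.0552. The scaffold Smarcc1 was at 19.9, 18.1 and 17.4 FPKM in siCtrl and 18.5, 19.9 and 19.4 in siNQO1, and did not pass (log2 fold change 0.07, 95% interval -0.06 to 0.21).

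Smarcb1 was essentially without reads. The row of this core subunit, which most cells need, held 1, 1 and 0 reads in siCtrl and 0, 0 and 1 in siNQO1, or 3 reads among the 204271370 of all libraries. Libraries at 0 allow up to 3 reads, and no fold is given. Its FPKM was at most 0.01, against at least 17.4 for Smarcc1. On the side that follows it in RefSeq order on chromosome 20, the next genes with a row were as low, with at most 1 read in Derl3 and at most 2 in Mif, a cytokine gene that most cells express. Beyond these, Gstt2 had 332 to 467 reads and Gstt1 152 to 236, with Gstt4 between them at up to 2. On the side that precedes Smarcb1, the nearest gene with a row, Chchd10, had 38 to 63 reads and the next, Zfp280b, had 72 to 129. The near-absence of reads was seen in siCtrl and siNQO1 alike. The authors counted only uniquely mapped reads, and the cause was not tested.

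**Figure D2:**
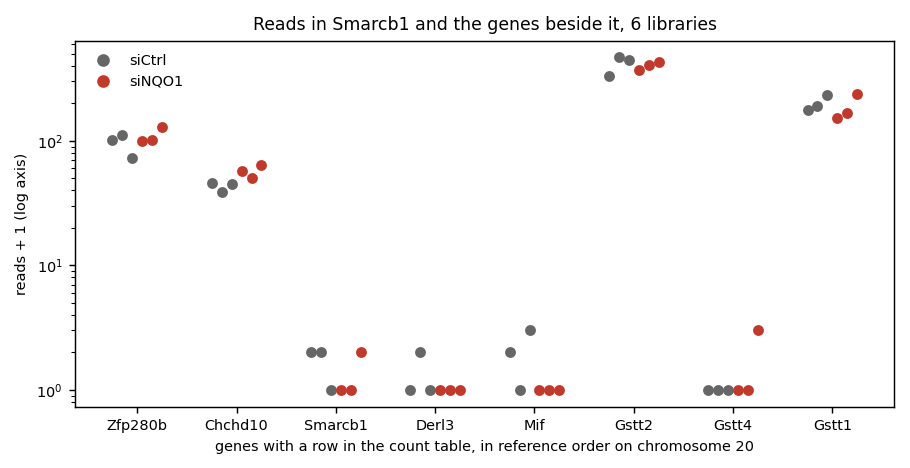
Reads plus 1, on a log axis, in the 6 libraries for Smarcb1 and the genes beside it that have a row in the count table, in reference order, with siCtrl in gray and siNQO1 in red. Smarcb1, Derl3 and Mif hold at most 2 reads in any library, and Gstt2 holds 332 to 467.

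Among the 9 members tested, 2 were lower (Brd7 and Arid1a), none was higher and 7 did not pass. Over all genes tested, 7.38% were called lower and 5.27% higher. At an unadjusted p under 0.05 in edgeR, 3 members were lower (Smarca4 added) and 1 was higher (Pbrm1), and DESeq2 called 2 lower and 1 higher. The groups did not overlap in 4 members (Brd7, Arid1a, Smarca4 and Brd9), against 34.2% of all genes tested. The median log2 fold change of the members was -0.10, and that of all genes tested was 0.01. Past the 2-fold threshold, no member was called in either direction, against 0.193% of all genes lower and 0.242% higher. Without siCtrl replicate 2, 3 members were lower (Brd7, Arid1a and Smarca4) and 1 was higher (Pbrm1), while 16.1% and 17.2% of all genes were called lower and higher.

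The fold changes of the PBAF members differed in sign, so their mean describes none of them. The mean log2 fold change of Brd7, Pbrm1 and Arid2 was -0.10, and that of Brd9, Arid1a and Arid1b was -0.08, a difference of -0.03. The same difference of mean log2 CPM was -1.67, -1.42 and -1.79 in siCtrl and -1.76, -1.55 and -1.61 in siNQO1, with an SD within groups of 0.156. The siNQO1 values lay within the range of the siCtrl values, and without siCtrl replicate 2 the difference of fold changes was 0.10. With Brd7 set aside, the mean of Pbrm1 and Arid2 was 0.21 and the difference 0.29, with an SD within groups of 0.240. By library this second difference was -2.97, -2.54 and -3.13 in siCtrl and -2.74, -2.43 and -2.53 in siNQO1, and only siCtrl replicate 2 lay among the siNQO1 values. Without it, a setting added after the data were seen, the difference of fold changes was 0.49. No test was made of these means, since the members are not replicates.

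**Figure D3:**
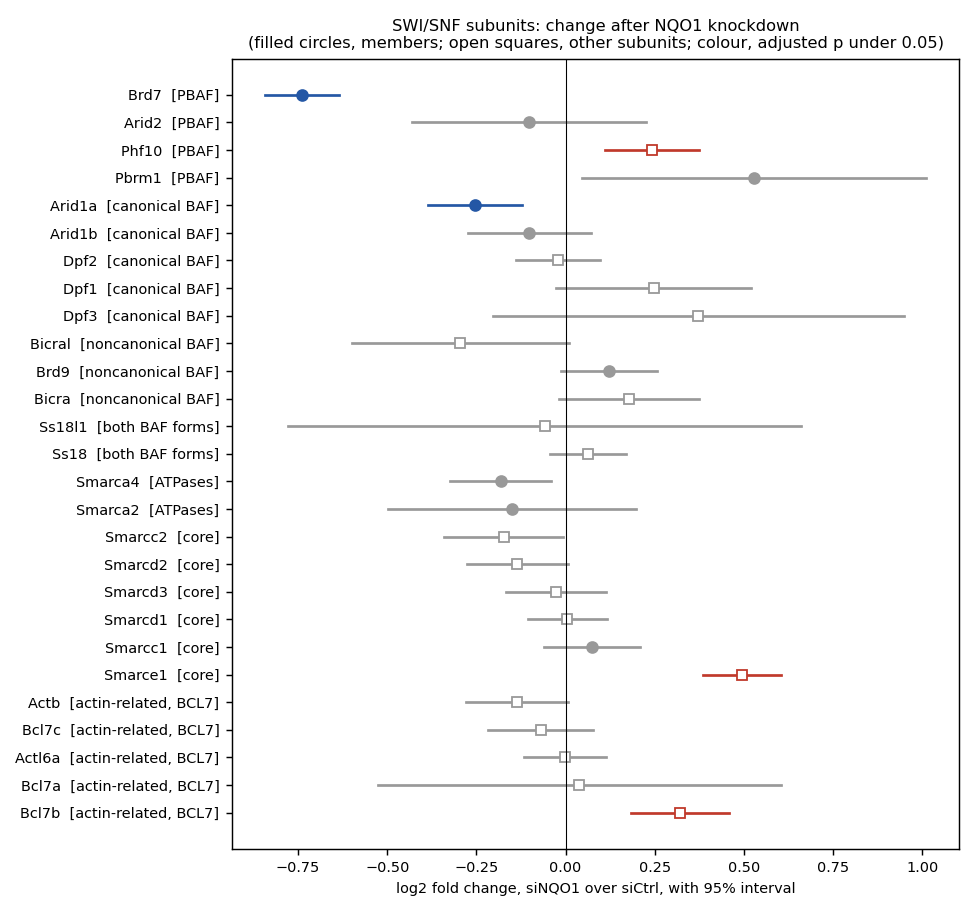
Log2 fold change of siNQO1 over siCtrl with its 95% interval for the 27 SWI/SNF genes tested, by complex form, with filled circles for members and open squares for other subunits, blue for lower and red for higher at an adjusted p under 0.05, and gray for the rest. Brd7 at -0.74 stands at the left end, and Smarce1 at 0.49 is the rightmost of the genes that passed.

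Ratios within a library do not depend on how libraries are scaled. The FPKM ratio of Brd7 to its paralog Brd9 was 3.04, 2.78 and 2.77 in siCtrl and 1.62, 1.57 and 1.54 in siNQO1. The log2 ratio differed by -0.86 (0.66 ± 0.037 in siNQO1 against 1.52 ± 0.075 in siCtrl, SD, n = 3, two-sided exact permutation p = 0.10, adjusted p = 0.25 over 5 ratios). Every siNQO1 library had the lower Brd7 to Brd9 ratio. The ratio of Pbrm1 to Arid1a was 0.118, 0.209 and 0.106 in siCtrl and 0.219, 0.258 and 0.261 in siNQO1 (log2 difference 0.83, two-sided exact permutation p = 0.10, adjusted p = 0.25). Its siCtrl replicate 2 again lay next to the siNQO1 libraries, and without it the log2 difference was 1.13. The ratios of Arid2 to Arid1a, Arid2 to Arid1b and Smarca2 to Smarca4 had log2 differences of 0.15, -0.005 and 0.04, with overlapping groups (two-sided exact permutation p = 0.50, 1.0 and 0.90).

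**Figure D4:**
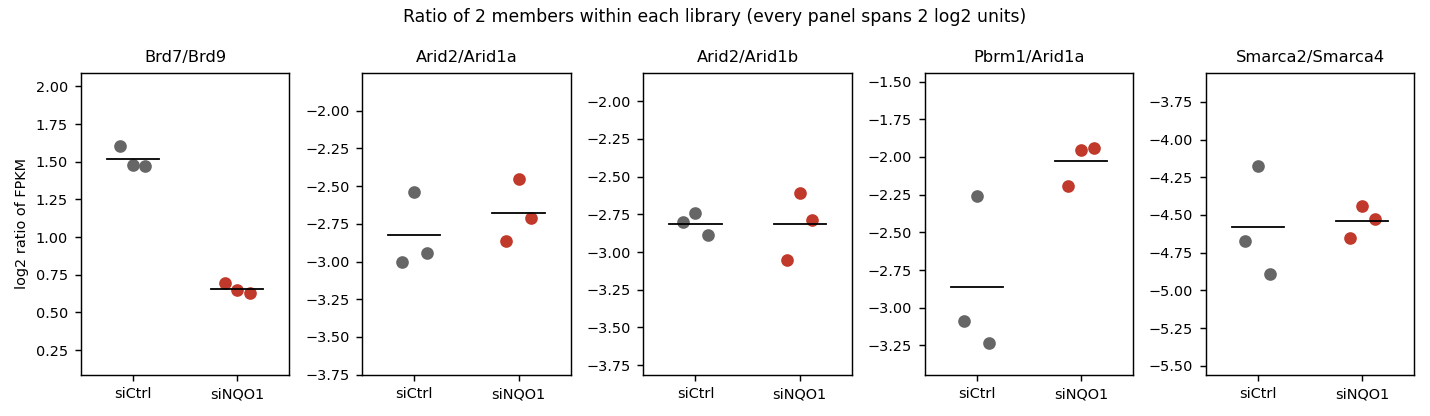
Log2 ratio of FPKM of 2 members within each library, with siCtrl in gray, siNQO1 in red and the group mean as a line, on axes that all span 2 log2 units. The Brd7 to Brd9 ratio has a mean of 1.52 in siCtrl and 0.66 in siNQO1, and no siNQO1 point reaches a siCtrl point.

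Of 19 further SWI/SNF subunits, 18 were tested, 3 were higher and none was lower, beside 5.27% and 7.38% of all genes. Without siCtrl replicate 2, a count also added after the data were seen, 3 were higher and 4 were lower, namely Smarcc2, Smarcd2, Actb and Bcl7c (log2 fold changes -0.23, -0.18, -0.18 and -0.14, edgeR adjusted p = 0.00775, 0.0152, 0.000721 and 0.0295), beside 17.2% and 16.1% of all genes. At an unadjusted p under 0.05, edgeR had 3 higher and 1 lower (Smarcc2), and DESeq2 called 3 higher and 0 lower. These 3 were Smarce1, Bcl7b and Phf10. Smarce1 (BAF57), an HMG-box subunit of canonical BAF and PBAF, was at 27.4, 28.3 and 25.9 FPKM in siCtrl and at 36.9, 38.2 and 38.6 in siNQO1. Its means of 27.2 ± 1.25 and 37.9 ± 0.864 (SD, n = 3) gave a log2 fold change of 0.49 (SE 0.048, edgeR adjusted p = 0.000771). Every alternative without a fold threshold kept this call, each left-out library included, and the change did not reach 2-fold. Bcl7b, a small accessory subunit, was at 20.8, 20.3 and 20.3 FPKM in siCtrl and 24.06, 24.95 and 26.93 in siNQO1 (log2 fold change 0.32, SE 0.060, edgeR adjusted p = 0.0119), and lost its call without siNQO1 replicate 2 or 3 (adjusted p = 0.0619 and 0.0628). The 15 that did not pass included the actin-related Actl6a (log2 fold change -0.001, 95% interval -0.12 to 0.11), the scaffold Smarcc2 (-0.17, edgeR adjusted p = 0.157), the noncanonical subunit Bicral (-0.29, adjusted p = 0.185) and the canonical subunit Dpf2 (-0.02). The median over the 18 was 0.002. Bicral, Actl6a, Smarcc2 and Dpf2 were named after their values were seen.

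Actl6b, Ss18l1, Dpf3 and Dpf1, which mark the neuronal form of BAF, were less abundant per length than their counterparts Actl6a, Ss18 and Dpf2. Actl6b, which replaces Actl6a in neurons, was at 0.01 to 0.04 FPKM and was not tested, while Actl6a was at 25.8 to 28.3. Ss18l1, the neuronal counterpart of Ss18, was at 0.26 to 0.39 FPKM, and Ss18 at 32.6 to 35.3. Dpf3 lay at 0.61 to 1.06 and Dpf1 at 2.80 to 3.80, below Dpf2 at 56.1 to 61.1. None of these genes passed, and they too were named after their values were seen.

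**Figure D5:**
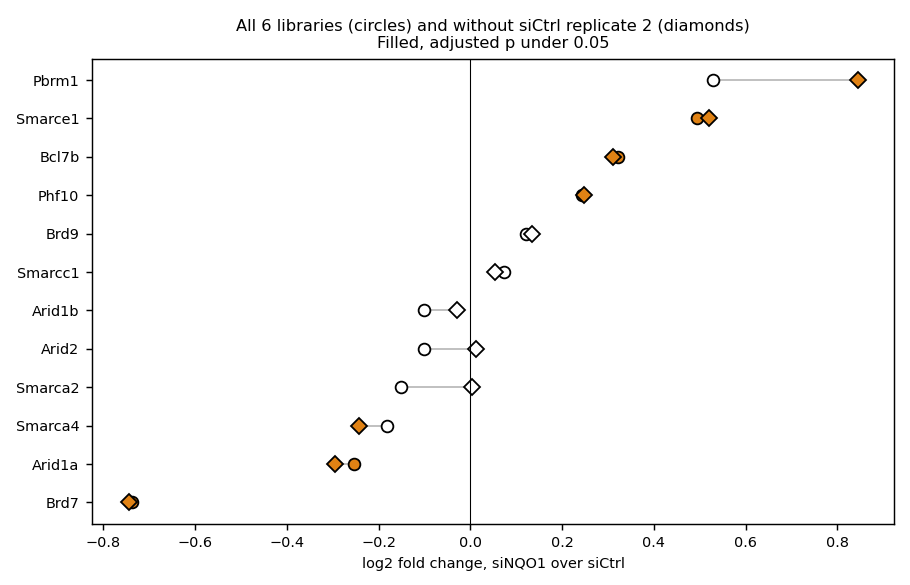
Log2 fold change of siNQO1 over siCtrl with all 6 libraries (circles) and without siCtrl replicate 2 (diamonds) for the 9 members tested and the 3 other subunits that passed, filled where the adjusted p was under 0.05. Brd7 moves from -0.74 to -0.75, and Pbrm1 moves from 0.53 to 0.84 and becomes filled.

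Among genes tested with an average log2 CPM over 3, the pattern of Brd7 over the 6 libraries was most like those of Nqo1, Nup88, Emc3, Rrm1 and Senp2, with Pearson r of log2 CPM of 0.998, 0.998, 0.998, 0.998 and 0.997. Each was lower in siNQO1, with log2 fold changes of -2.13, -0.63, -0.33, -0.35 and -0.63. Nup88 is a nuclear pore protein, Emc3 a subunit of a membrane insertase, Rrm1 a ribonucleotide reductase subunit and Senp2 a SUMO protease. Of 8609 genes compared, 48 had an r over 0.99, and with 6 libraries that share the group difference such values are a description. Among the members, r with Brd7 was 0.94 for Arid1a, 0.81 for Smarca4, -0.72 for Pbrm1 and -0.85 for Brd9.

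Brd7 (ENSRNOG00000014419) is listed on chromosome 19, as is Nqo1. Of the 3 genes on each side of Brd7 in RefSeq order, 4 are lncRNA loci with no row under their names, Adcy7 had 0 to 5 reads, and Tent4b, listed as Papd5, had a log2 fold change of -0.02 (edgeR adjusted p = 0.939). Heatr3 and Cnep1r1, the next genes with a row on the side that follows Brd7, were looked at after their values were seen. Heatr3 was lower (log2 fold change -0.33, edgeR adjusted p = 0.0263, up to 0.114 with 1 library left out) and Cnep1r1 was at 0.03. On the side that precedes Brd7, Nkd1 had 1 to 5 reads. Snx20 beyond it had 23 to 34 and a log2 fold change of -0.03 (edgeR adjusted p = 0.956). The lncRNA nearest to Brd7 overlaps its first bases in RefSeq, and whether the counting used strand is not given in the sources used here.

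Of 76 genes tested in 4 lists of other remodelers and bromodomain proteins, 5 (6.58%) were lower and 1 (1.32%) was higher, beside 7.38% and 5.27% of all genes tested. Of the ISWI genes, 11 were tested and 1 was lower (Rbbp4, a histone chaperone shared with other complexes, log2 fold change -0.21). Of the CHD and NuRD genes, 17 were tested and 1 was lower (Mta2, -0.25). Of the INO80, SRCAP and TIP60 genes, 26 were tested, Ep400 was lower (-0.30) and Ino80e higher (0.25). Of 22 other bromodomain genes tested, the acetyltransferases Kat2a and Kat2b were lower (-0.26 and -0.33). The medians of these 4 lists were 0.01, 0.04, 0.007 and -0.02, beside 0.01 for all genes. Each of these 6 calls was lost without at least 1 library, with highest adjusted p of 0.159, 0.0579, 0.0921, 0.157, 0.0875 and 0.165 from edgeR in the order named. Of 19 p53 target genes tested, listed because Brd7 is a p53 cofactor, Zmat3 and Gadd45a were higher (0.83 and 0.39), Bax was lower (-0.33) and 16 did not pass, with a median of 0.11. Gadd45a lost its call without at least 1 library (adjusted p up to 0.0908 from edgeR), and Zmat3 and Bax kept theirs.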

How the data were processed

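Polyadenylated RNA was sequenced as strand-marked paired reads. Per the methods of the study, the authors dropped reads with over 2 ambiguous bases, trimmed the rest, aligned them to RGSC6 and kept unique alignments with up to 4 mismatches. Tools named in the processing notes of the submitters are bcl2fastq, TopHat2 and edgeR. The deposited counts are whole reads per gene with no normalization. FPKM, which divides reads by transcript length and library depth, is deposited as the authors computed it. No source used here names the counting tool, so overlapping or antisense genes may share reads.

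R 4.3.3 and edgeR 4.0.16 were used on the counts (filterByExpr, TMM, glmQLFit, glmQLFTest, no block), and p-values were adjusted by Benjamini-Hochberg over all 12420 genes tested. The coefficient of variation shared by all genes was 0.109. Log2 CPM used a prior count of 2. Ratios used FPKM. Alternatives used DESeq2 1.42.0, limma 3.58.1 (voom, or log2 of FPKM plus 1 or 0.1), 2 further edgeR tests (exact, likelihood ratio), other scalings and filters, a fold over 2, a replicate block and each library left out. The script was tested on simulated counts. Members and lists were chosen with earlier results of these data known. The genes named are all members, other subunits that passed or are the sole tested member of a subunit family, up to 4 called genes per list, the 3 reference genes on each side of Brd7, its 5 most alike genes and Nqo1. Any others were chosen after their values were seen. Promoter windows are from RefSeq GRCr8, where all 10 members matched by symbol. RT-qPCR and splicing were not analysed here. A marker gene that the lists hold is not reported here.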

Additional observations from a re-analysis of the deposited data

How the results depend on the processing

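Brd7 and Smarce1 passed under all 18 alternatives fitted without a fold threshold, with log2 fold changes of -0.76 to -0.73 and 0.47 to 0.52 and adjusted p up to 0.00819 and 0.0171. The members called lower numbered 2. They numbered 1 with limma on log2(FPKM + 0.1), 0 past a fold of 2, and 1 to 3 with 1 library left out. Of members called higher there were 0 in edgeR (1 at an unadjusted p under 0.05), 1 with DESeq2, and 0 to 1 with 1 library left out, the 1 in both cases being Pbrm1. Over all subunits tested, 2 were lower and 3 higher. Both counts were 0 past a fold of 2, 1 was lower with limma on log2(FPKM + 0.1), and with 1 library left out 1 to 7 were lower and 1 to 4 higher, the 7 without siCtrl replicate 2. Arid1a did not pass with limma on log2(FPKM + 0.1), nor Phf10 with limma on log2(FPKM + 1) or log2(FPKM + 0.1) (adjusted p = 0.0641, 0.0565 and 0.0917). Values near 0 changed sign when a library was left out. The log2 fold changes of Arid2 and Smarca2 became 0.011 and 0.0038 without siCtrl replicate 2, and with each library left out ran from -0.24 and -0.28 to these values. The log2 differences of the Arid2 to Arid1b and Smarca2 to Smarca4 ratios ran from -0.11 to 0.11 and from -0.11 to 0.24. The PBAF difference ran from -0.10 to 0.10 over 11 alternatives, within 1 SD. In the same-numbered libraries the deviations from group means correlated at -0.04, 0.16 and 0.06, so the numbers were not taken to pair them. A replicate block gave Brd7 a log2 fold change of -0.74 (adjusted p = 0.00145), 2 members lower and 0 higher, and changed no call of a member. The causes were not tested. Precision is limited by 3 libraries a group, and the intervals were widest for Pbrm1, Smarca2 and Arid2 among the members, which lay under 2 FPKM.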
